A study of Mus musculus with 15 samples.

Results

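The cathepsins are the main proteases of endosomes and lysosomes, and cystatin C, the product of Cst3, is a secreted inhibitor of the cysteine cathepsins. The gene set described here holds 8 genes, Ctss, Ctsl, Ctsb, Ctsz, Ctsc, Ctsh, Ctsd and Cst3, of 8251 genes measured. They were found by gene symbol in the platform annotation and had 14 of the 12422 probe sets tested. Ctsb had 4 probe sets, Ctsc had 3, Cst3 had 2 and each of the other 5 genes had 1. The probe set with the highest mean log2 value stands for a gene, and the other probe sets are given beside it.

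The genes were followed in dendritic cells (DC), the cells that capture antigen and show it to T cells. Bone marrow of female NOD mice aged 6 to 8 weeks, a strain that develops autoimmune diabetes, was cultured for 4 days in 1 ng/ml of the growth factor GM-CSF (GM DC) or in GM-CSF with 1 ng/ml interleukin-4 (GM4 DC). GM DC were purified on a 16% metrizamide gradient and GM4 DC on a 14.5% gradient, and both were stimulated with 10 µg/ml lipopolysaccharide (LPS) plus 50 ng/ml interferon-γ. RNA was taken at 0, 6 and 20 h, and 15 arrays were made, with n = 3, 2 and 2 for GM DC and n = 3, 3 and 2 for GM4 DC in the order of the times. The labels call the replicates biological, without saying which animals they came from. The source names of the GM4 samples at 0 h mention LPS and interferon-γ although their titles give 0 h, and the growth protocol of GM4 0 h replicate 1 gives neither doses nor gradient.

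In antigen-presenting cells, cathepsins cut endocytosed protein into peptides and degrade the invariant chain, which blocks the peptide groove of major histocompatibility complex (MHC) class II molecules until it is removed. Cathepsin S carries out the last step of invariant chain removal in DC and B cells. Cystatin C binds cysteine cathepsins in a reversible manner and does not inhibit the aspartic protease cathepsin D.

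Upstream sequences of 3 genes are printed because these genes carry the patterns found: Ctss and Ctsd had lower signal in GM4 DC and varied together over the arrays, and Cst3 did not follow them. Each is the 250 bases before the transcription start in RefSeq's table for GRCm38.p6, read 5′ to 3′ on the gene's strand. The Ctss sequence lies at chr3:95526536-95526785 on the plus strand, the Ctsd sequence at chr7:142387828-142388077 on the minus strand and the Cst3 sequence at chr2:148875513-148875762 on the minus strand. Capitals mark matches to the motifs named after the sequences.
Ctss: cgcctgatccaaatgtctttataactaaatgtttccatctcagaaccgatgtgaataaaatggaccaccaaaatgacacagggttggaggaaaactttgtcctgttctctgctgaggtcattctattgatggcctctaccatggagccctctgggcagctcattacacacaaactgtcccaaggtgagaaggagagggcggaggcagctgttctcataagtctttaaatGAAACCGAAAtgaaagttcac
Ctsd: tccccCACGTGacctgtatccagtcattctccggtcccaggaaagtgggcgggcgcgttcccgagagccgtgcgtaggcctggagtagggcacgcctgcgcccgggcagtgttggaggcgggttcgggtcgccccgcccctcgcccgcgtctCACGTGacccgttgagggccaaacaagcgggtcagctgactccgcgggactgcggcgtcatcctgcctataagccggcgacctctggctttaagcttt
Cst3: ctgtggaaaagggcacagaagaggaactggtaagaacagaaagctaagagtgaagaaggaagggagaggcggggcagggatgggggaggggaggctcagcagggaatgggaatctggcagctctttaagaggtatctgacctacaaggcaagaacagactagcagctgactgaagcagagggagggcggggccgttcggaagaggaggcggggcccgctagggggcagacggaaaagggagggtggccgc

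The table held 6 of the 8 genes, without Ctsb and Ctsh. The 250 bases before the start of each were searched on both strands for 5 motifs. The E-box CACGTG occurred in 6.02% of 32851 promoters and in 2 of the 6, Ctsd with 2 copies, 245 and 98 bases before the start, and Ctsl with a copy 236 bases before it. The CLEAR element, the same letters with GT before and AC after them, which the lysosomal regulator Tfeb is known to bind, occurred in 0.24% of promoters and in 0 of the 6. Only exact matches to all its letters were counted. The Ctsd copy 98 bases before the start has CT before and AC after it, and so differs from that element in the first letter alone. The core of the interferon-stimulated response element, a pair of GAAA with any 2 bases between them, occurred in 2.98% of promoters and in Ctss as GAAACCGAAA, 21 bases before the start. The interferon-γ activated site TTCNNNGAA occurred in 7.02% of promoters and in Ctsc, 236 bases before the start. The STAT6-type element, TTC and GAA with any 4 bases between them, occurred in 5.85% of promoters and in 0 of the 6. The last pair of motifs differ only in the number of bases between their arms. A match is a match of letters and no binding was measured.

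Values are signals of the MAS5 algorithm, a linear intensity scaled on each array, and differences are of log2(signal + 16). After a log2 difference, ± is limma's standard error, and a gene passed where limma's p, adjusted over all 12422 probe sets, was under 0.05. Signals of different probe sets are not compared with each other, since each has its own probes. The median signal per array was 40.1 to 48.5, and 29.7% to 35.3% of probe sets per array were below 16. All 8 main probe sets were above that on all 15 arrays. In bulk RNA, fewer cells of a type and less RNA per cell cannot be told apart.

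The labelled cell type was checked with 10 DC markers, all measured and none below 16 on all arrays. Their summed signal was 12573 to 16864 in GM DC and 18653 to 25062 in GM4 DC at 0 h. The DC types overlapped in it at 6 h, with 16600 to 23143 and 17940 to 25229, and at 20 h, with 10262 to 14162 and 13340 to 15306. Of the 10 markers, 5 passed as higher in GM4 DC at 0 h, 4 at 6 h and 3 at 20 h. Over all probe sets the shares that passed as higher were 6.86%, 6.39% and 3.14%. Of 11 monocyte and macrophage markers 9 were measured, none of them below 16 on all arrays. Their summed signal was 13055 to 15793 on GM arrays and 4438.5 to 4834 on GM4 arrays at 0 h, 17517 to 24523 and 4825 to 6478 at 6 h, and 14854 to 15973 and 8637 to 8699.5 at 20 h. They passed as lower in GM4 DC for 8 of 9 genes at 0 h, 9 at 6 h and 3 at 20 h. Over all probe sets the shares that passed as lower were 7.12%, 4.74% and 1.56%. Of 6 stromal or fibroblast markers, all measured, 3 were lower in GM4 DC before stimulation, 1 after 6 h and 0 after 20 h, with median log2 differences of -0.68, -0.84 and -0.52, and 0 were higher. Their summed signal at 0 h was 644 to 1492 on GM arrays and 371 to 650.3 on GM4 arrays. Of 12 neutrophil markers, all measured and none below 16 on all arrays, 7 fell between 0 and 20 h in GM DC and 8 in GM4 DC, and 1 rose in each, Lcn2, from a mean signal of 89.1 to 1239 and from 379 to 1094. Their summed signal at 0 and 20 h was 9420.1 to 9673 and 3474 to 4608 in GM DC, and 9848 to 15321 and 3045 to 3150.4 in GM4 DC. Over that time 16% of all probe sets fell in GM DC and 12.3% in GM4 DC, and 11% and 8.71% rose.

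RNA quality also followed the DC type. The 3′ to 5′ ratio of the Gapdh control probe sets, higher where transcripts are shortened at the 5′ end, ran from 1.18 to 2.46 with a median of 1.63 on the 7 GM arrays and from 1.03 to 1.48 with a median of 1.09 on the 8 GM4 arrays. For the β-actin control the ranges were 1.43 to 2.26 and 1.13 to 1.44. The following 3 arrays are named again below. GM 0 h replicate 3 had the highest Gapdh ratio, and GM 6 h replicate 1 had the lowest share of probe sets below 16. GM4 0 h replicate 3 is named for the values of the 8 genes themselves, since it lay outside the other 2 arrays of its group for 7 of them. In a group of 3 arrays the highest and the lowest always lie outside the others, and the share over all probe sets was not counted. Fits without GM4 0 h replicate 3 are thus descriptive. Against the mean of the other 2 arrays of its group, GM4 0 h replicate 3 was 0.69 higher on the log2 scale for Ctsb, 0.47 for Ctsd and 1.01 for Ctsl, and Ctsc differed by -0.75. Its ratios, 1.31 for Gapdh and 1.44 for β-actin, were the highest of the 3 GM4 arrays at 0 h.

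Before stimulation, 5 of the 8 genes were lower in GM4 than in GM DC and 0 were higher. Ctsc had the largest difference of the 8, 2.94-fold, followed by Ctsl with 2.23-fold, Ctsd with 1.90-fold, Ctsb with 1.58-fold and Ctss with 1.41-fold. Among all probe sets 7.12% passed as lower at 0 h. At 6 h these 5 genes and Ctsz were lower and 0 were higher, against 4.74% of probe sets lower, and at 20 h only Ctsh and Ctss passed, both lower, against 1.56%. The median log2 difference of the 8 genes was -0.58, -0.76 and -0.43 at 0, 6 and 20 h, against -0.06, -0.02 and -0.04 over all genes. Monocyte and macrophage markers, stromal markers, DC markers and the RNA quality ratios differed in the same comparisons. Of 12 neutrophil markers, 3 were higher and 2 lower in GM4 DC at 0 h. The part of these differences in the result was not tested. A fit with the ratios as a covariate is given below and cannot separate RNA quality from DC type.

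**Figure D1:**
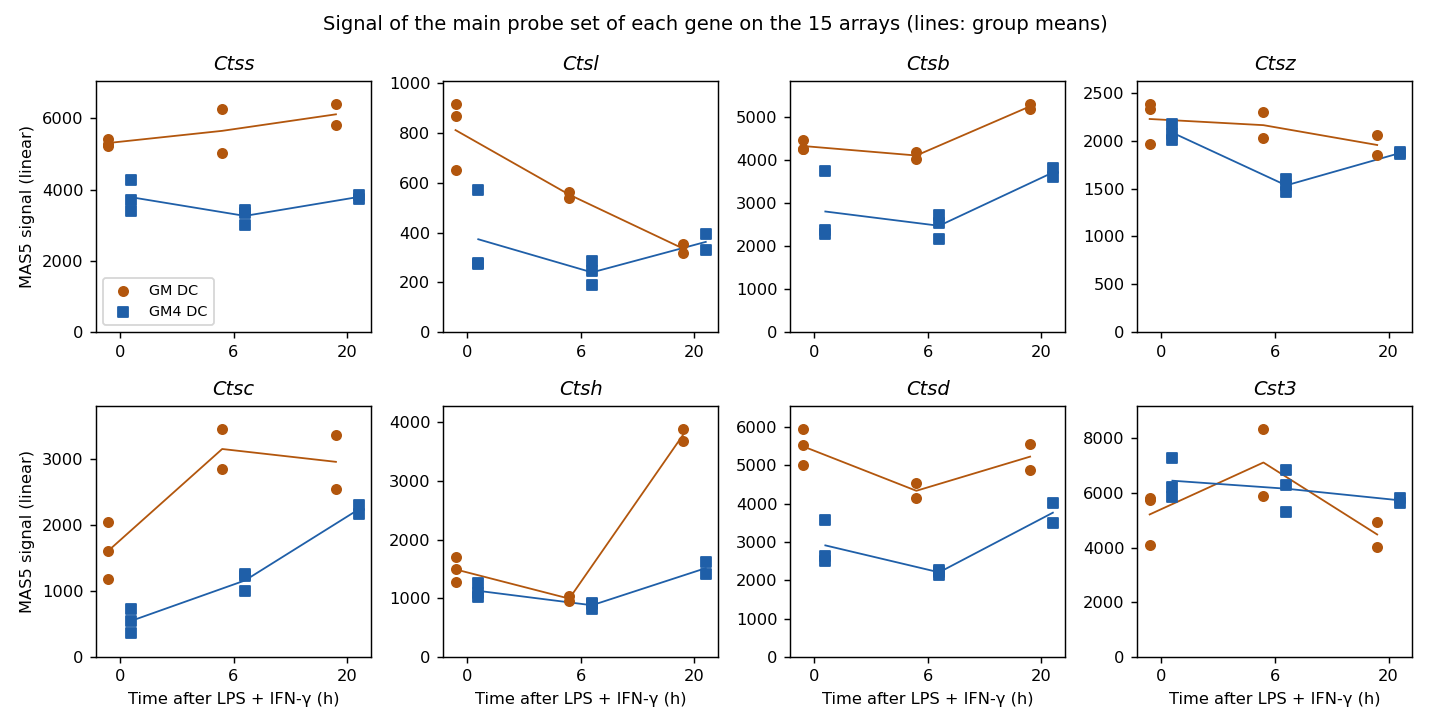
Linear MAS5 signal (y axis, from 0) of the main probe set of each gene on the 15 arrays against time after LPS plus interferon-γ (x axis, 0, 6 and 20 h evenly spaced). Circles are GM arrays, squares GM4 arrays and lines join group means. For Ctss, Ctsb and Ctsd all 7 GM arrays lie above all 8 GM4 arrays, and for Ctsh the 2 GM arrays at 20 h, 3895 and 3677, lie above every other array.

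Over all 3 times, the lowest of the 7 GM arrays was above the highest of the 8 GM4 arrays for 3 of the 8 genes: Ctss with 5032 against 4266, Ctsb with 4025 against 3810.4 and Ctsd with 4145 against 4025. Such a gap with GM4 lower was found for 0.749% of all probe sets. The other 5 genes overlapped between the DC types when the 3 times were pooled.

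Among the endopeptidases, Ctss had signals of 5428, 5218 and 5285 in unstimulated GM DC, 6269.9 and 5032 after 6 h, and 6409 and 5822 after 20 h. The GM4 arrays had 3710.0, 3389 and 4266 before stimulation, 3351, 3019.6 and 3419 after 6 h, and 3747 and 3845 after 20 h. The GM groups overlapped each other in order, as did the GM4 groups, and no GM array reached down to a GM4 array. The log2 difference, GM4 minus GM, was -0.49 ± 0.13 at 0 h (adjusted p = 0.0264), -0.78 ± 0.15 at 6 h (adjusted p = 0.00441) and -0.68 ± 0.17 at 20 h (adjusted p = 0.03). Ctss was the only one of the 8 genes that passed at all 3 times. It did not pass in any comparison of times within a DC type, where differences ran from -0.21 to 0.22. Its call was lost without any 1 of GM 0 h replicates 1, 2 and 3 or GM4 0 h replicates 1 and 2 at 0 h (-0.50 to -0.42), without GM 6 h replicate 1 at 6 h (-0.62), and without any 1 of the 4 arrays at 20 h (-0.75 to -0.61). With quantile normalization the difference was -0.46 at 6 h (adjusted p = 0.0148) and -0.31 at 20 h, where the call was lost (adjusted p = 0.191).

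Ctsl encodes cathepsin L, an endopeptidase that in mouse acts on the invariant chain in thymic cortical epithelium. It had signals of 917, 651 and 867 in unstimulated GM DC, 564 and 541 after 6 h, and 355 and 317 after 20 h, so that each GM group lay below the one before. Its GM4 signals were 274, 276 and 570.0 before stimulation, 287, 246 and 188 after 6 h, and 396 and 329 after 20 h. GM4 0 h replicate 3 was just above both GM arrays of 6 h, and the groups of 20 h overlapped. On the log2 scale GM4 minus GM was -1.16 ± 0.24 at 0 h (adjusted p = 0.005), -1.17 ± 0.27 at 6 h (adjusted p = 0.0115) and 0.10 ± 0.29 at 20 h (adjusted p = 0.922, 95% interval -0.53 to 0.73). Without GM4 0 h replicate 3 the difference at 0 h was -1.49, and the call at 6 h was lost without GM 6 h replicate 1 (-1.14).

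Ctsb encodes cathepsin B, which acts as an endopeptidase and removes dipeptides from carboxy termini. Its main probe set had 4265, 4257 and 4482 in unstimulated GM DC, 4199.7 and 4025 after 6 h, and 5315 and 5200.2 after 20 h. The signals of GM4 DC were 2381, 2285 and 3761 before stimulation, 2534, 2179.5 and 2716 after 6 h, and 3810.4 and 3624 after 20 h. GM4 DC were lower at each time, and GM4 0 h replicate 3 lay between the GM4 arrays of 20 h. The log2 difference was -0.66 ± 0.17 at 0 h (adjusted p = 0.0184), -0.73 ± 0.19 at 6 h (adjusted p = 0.0225) and -0.50 ± 0.21 at 20 h, where it did not pass (adjusted p = 0.225, 95% interval -0.94 to -0.05). The call was lost without any 1 of GM 0 h replicates 2 and 3 and GM4 0 h replicates 1 and 2 at 0 h (-0.67 to -0.53), and without GM 6 h replicate 1 or 2 or GM4 6 h replicate 2 at 6 h (-0.76 to -0.65). With quantile normalization the difference at 6 h was -0.46 and did not pass (adjusted p = 0.084).

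Ctsz encodes cathepsin Z, also called cathepsin X, a carboxypeptidase. It varied the least of the 7 cathepsins between the DC types at 0 h. It had 2384, 1965 and 2329 in unstimulated GM DC, 2023 and 2300.4 after 6 h, and 2059 and 1850.0 after 20 h. In GM4 DC the values were 2071, 2008 and 2170.0 before stimulation, 1535, 1597 and 1467 after 6 h, and 1855 and 1886 after 20 h. Only the GM4 arrays at 6 h stood below all others, and the remaining groups overlapped with their neighbours in order of level. GM4 minus GM was -0.09 ± 0.11 at 0 h (95% interval -0.33 to 0.15), -0.49 ± 0.13 at 6 h (adjusted p = 0.0216) and -0.06 ± 0.14 at 20 h (95% interval -0.36 to 0.23). The call at 6 h was lost without GM 6 h replicate 1 or 2 or GM4 6 h replicate 3 (-0.58 to -0.40), and with quantile normalization (-0.35, adjusted p = 0.0776).

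Ctsc encodes cathepsin C, a dipeptidyl peptidase that activates the serine proteases of granules. It had 2038, 1608 and 1182 in unstimulated GM DC, 3461 and 2839.6 after 6 h, and 3369 and 2542 after 20 h. The GM4 arrays had 539.5, 727 and 366 before stimulation, 1217, 1256 and 998 after 6 h, and 2170.0 and 2300.4 after 20 h. GM4 DC lay below GM DC at each time, and GM4 DC at 6 h overlapped GM DC at 0 h. On the log2 scale GM4 minus GM was -1.55 ± 0.23 at 0 h (adjusted p = 0.000467), -1.43 ± 0.26 at 6 h (adjusted p = 0.00288) and -0.39 ± 0.28 at 20 h, where it did not pass (adjusted p = 0.569, 95% interval including 0). The calls at 0 and 6 h were the only ones of these 11 at 0 and 6 h that held under all 27 alternative settings.

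Ctsh encodes cathepsin H, an aminopeptidase that can also act as an endopeptidase. It had 1703, 1497 and 1275 in unstimulated GM DC, 1039 and 946 after 6 h, and 3895 and 3677 after 20 h. Its GM4 signals were 1091, 1027 and 1258 before stimulation, 822, 898 and 918 after 6 h, and 1612 and 1413 after 20 h. The DC types were close at 0 and 6 h, without overlap, and far apart at 20 h. The log2 difference was -0.40 ± 0.13 at 0 h (adjusted p = 0.051), -0.17 ± 0.14 at 6 h (adjusted p = 0.498) and -1.32 ± 0.15 at 20 h (2.49-fold lower, adjusted p = 0.000412). The call at 20 h held under all 27 alternative settings, with values from -1.48 to -1.22. At 0 h the difference passed without GM 0 h replicate 3 (-0.50, adjusted p = 0.0215) and without GM4 0 h replicate 3 (-0.48, adjusted p = 0.0388).

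Ctsd encodes cathepsin D, the aspartic endopeptidase of lysosomes. It had 5018, 5527 and 5966 in unstimulated GM DC, 4531 and 4145 after 6 h, and 4889 and 5572 after 20 h. The signals of GM4 DC were 2639, 2514 and 3580.4 before stimulation, 2206, 2149 and 2267 after 6 h, and 3506 and 4025 after 20 h. All GM arrays were above all GM4 arrays, and within GM4 DC the 6 h group was the lowest and overlapped neither other group. GM4 minus GM was -0.93 ± 0.15 at 0 h (adjusted p = 0.000785), -0.97 ± 0.17 at 6 h (adjusted p = 0.00192) and -0.47 ± 0.18 at 20 h, where it did not pass (adjusted p = 0.181, 95% interval -0.86 to -0.08).

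**Figure D2:**
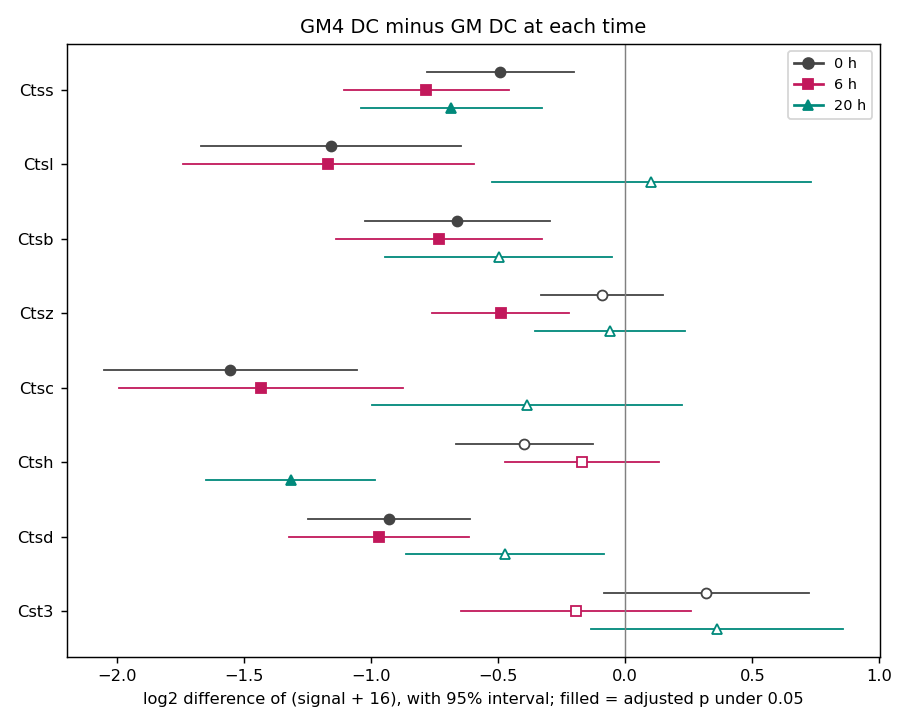
Log2 difference of (signal + 16), GM4 minus GM DC (x axis), for the main probe set of each gene (y axis) at 0, 6 and 20 h, with limma's 95% interval; filled symbols have an adjusted p under 0.05. Filled symbols all lie left of 0, and at 20 h they are those of Ctsh (-1.32) and Ctss (-0.68).

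The 3′ to 5′ ratios were also used as a covariate, as log2 values averaged over both controls. The lowest GM value of this covariate was 0.468 and the highest GM4 value 0.458. Since the DC types did not overlap in it, this fit cannot separate RNA quality from DC type. With the covariate, only Ctsc passed at 0 h and only Ctsc at 6 h. The values of the other genes at 0 and 6 h were then -0.64 and -0.67 for Ctsd, -1.07 and -1.07 for Ctsl, -0.41 and -0.70 for Ctss and -0.41 and -0.47 for Ctsb, with adjusted p from 0.0547 to 0.366. At 20 h Ctss no longer passed (-0.58, adjusted p = 0.257), Ctsh passed, and Ctsc passed at -1.26 (adjusted p = 0.0371). Without both GM 0 h replicate 3 and GM 6 h replicate 1, 2 genes passed at 6 h in place of 6.

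The inhibitor Cst3 gave different results on its 2 probe sets. On the main one, 99586_at, it had 5805, 4095 and 5745 in unstimulated GM DC, 8364 and 5873 after 6 h, and 4928 and 4034 after 20 h. In GM4 DC the values were 7278, 5864 and 6211 before stimulation, 6309.8, 5308 and 6857 after 6 h, and 5819 and 5645 after 20 h. All 6 groups overlapped with their neighbours in order of level. Compared at the same time, the GM4 arrays lay above the GM arrays at 0 h (lowest 5864 against highest 5805) and at 20 h (5645 against 4928). At 6 h the DC types overlapped. The share of all probe sets with such gaps is not given here. On the log2 scale GM4 minus GM was 0.32 ± 0.19 at 0 h (95% interval -0.09 to 0.72), -0.19 ± 0.21 at 6 h (95% interval -0.65 to 0.26) and 0.36 ± 0.23 at 20 h (95% interval -0.13 to 0.86), and none of these passed (adjusted p = 0.309, 0.622 and 0.487). With quantile normalization the difference at 20 h was 0.70 and passed (adjusted p = 0.0202).

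The second Cst3 probe set, 161522_i_at, has a suffix that the maker gave to sets with fewer probes than usual. It had 599.9, 552 and 942 in unstimulated GM DC, 932 and 577 after 6 h, and 578 and 647 after 20 h. The GM4 arrays had 2443, 1860.2 and 2070.1 before stimulation, 1852, 1961 and 2701 after 6 h, and 1490.0 and 1432 after 20 h. All 8 GM4 arrays lay above all 7 GM arrays, a gap with GM4 higher that 1.04% of probe sets showed. Cst3 was higher in GM4 DC on this probe set by 1.61 ± 0.22 at 0 h (adjusted p = 0.000208), 1.52 ± 0.24 at 6 h (adjusted p = 0.00113) and 1.24 ± 0.27 at 20 h (adjusted p = 0.0159). Among all probe sets 6.86%, 6.39% and 3.14% passed as higher at the 3 times. The correlation of the 2 probe sets over the 15 arrays was 0.53. Both were higher in GM4 DC at 0 and 20 h, but only the second passed, and at 6 h their differences had opposite signs. Which of them follows the transcript was not tested.

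The other probe sets of Ctsb and Ctsc gave differences of the same sign as the main ones between the DC types at 0 and 6 h. For Ctsb, 95608_at differed by -0.77 ± 0.17 at 0 h and -0.73 ± 0.19 at 6 h, and 92256_at by -1.08 ± 0.23 and -1.18 ± 0.26, all of which passed. Ctsb 162271_f_at, of a suffix for sets that share sequence with a family, had a mean signal of 32.6 and passed in no comparison. For Ctsc, 101020_at differed by -1.62 ± 0.20 at 0 h and -1.37 ± 0.22 at 6 h and passed at both, and 161251_f_at, with a mean signal of 18.1, passed at 0 h with -0.72 ± 0.21. Of the 14 probe sets 9 were lower and 1 higher at 0 h, again 9 and 1 at 6 h, and 2 and 1 at 20 h. Over all probe sets 7.12%, 4.74% and 1.56% passed as lower and 6.86%, 6.39% and 3.14% as higher. Several of the 14 measure the same gene, so they are not independent.

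**Figure D3:**
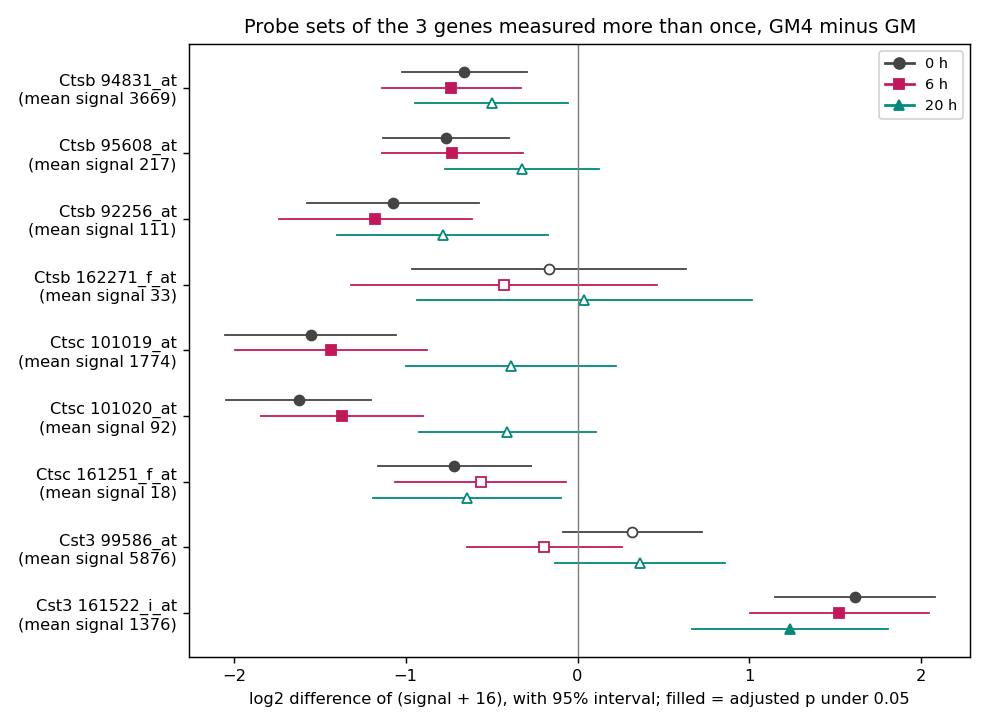
Log2 difference of (signal + 16), GM4 minus GM DC (x axis), for every probe set of Ctsb, Ctsc and Cst3 (y axis, with its mean signal over the 15 arrays) at 3 times, with limma's 95% interval; filled symbols have an adjusted p under 0.05. The probe sets of Ctsb and Ctsc lie on the same side at 0 and 6 h, while the 2 of Cst3 stand apart, with 0.32 and 1.61 at 0 h.

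After stimulation, Ctsc and Ctsh each passed in 5 of the 6 comparisons of times, and Ctsb, Ctss and Cst3 in none. In GM DC between 0 and 6 h Ctsc rose and Ctsh fell, 1 of 8 genes in each direction, against 8.52% of probe sets higher and 15.7% lower. Between 0 and 20 h Ctsc and Ctsh rose and Ctsl fell, against 11% higher and 16% lower, and between 6 and 20 h 1 gene rose, Ctsh, and 0 fell, against 8.7% and 7.75%. In GM4 DC Ctsc rose and Ctsz fell between 0 and 6 h, against 5.84% higher and 10% lower. Ctsc and Ctsh rose between 0 and 20 h and 0 genes fell, against 8.71% and 12.3%, and Ctsc, Ctsd and Ctsh rose between 6 and 20 h and 0 fell, against 5.68% and 6.01%. These comparisons share arrays: those from 0 h share the 0 h arrays, and each time is used again in the comparison of 6 with 20 h.

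Ctsh changed the most in GM DC. It fell by 0.57 on the log2 scale from 0 to 6 h (SE 0.14, adjusted p = 0.00806) and then rose by 1.92 ± 0.15 from 6 to 20 h (3.77-fold, adjusted p = 3.8e-06), ending 1.34 ± 0.14 above 0 h (2.54-fold, adjusted p = 6.72e-06). The rises from 0 and from 6 h held under all 27 alternative settings, and the fall at 6 h was lost without GM 6 h replicate 2 (-0.51). In GM4 DC Ctsh differed by -0.35 ± 0.13 at 6 h, which did not pass (adjusted p = 0.0826), rose by 0.77 ± 0.14 from 6 to 20 h (adjusted p = 0.00255) and rose by 0.42 ± 0.14 from 0 to 20 h (1.34-fold, adjusted p = 0.0464). The last call was lost without any 1 of 12 of the 15 arrays, with values of 0.33 to 0.52, while the rise from 6 to 20 h held under all 27 settings.

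The difference between these Ctsh responses was tested directly. From 0 to 20 h the change in GM4 DC was smaller than in GM DC by a log2 difference of -0.92 ± 0.20 (adjusted p = 0.039, 95% interval -1.35 to -0.49), the 1 gene of 8 that passed, against 0.708% of probe sets that passed as lower in this test. The call was lost without any 1 of GM 0 h replicates 2 and 3, the 2 GM 20 h arrays, the 3 GM4 0 h arrays, GM4 6 h replicates 2 and 3 and the 2 GM4 20 h arrays, with values of -1.01 to -0.81.

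Ctsc rose in both DC types. In GM DC it rose by 0.99 ± 0.26 from 0 to 6 h (adjusted p = 0.0119) and was 0.89 ± 0.26 above 0 h at 20 h (adjusted p = 0.0191). The GM arrays of 6 and 20 h overlapped. In GM4 DC it rose by 1.11 ± 0.23 to 6 h (adjusted p = 0.00455), by a further 0.95 ± 0.26 to 20 h (adjusted p = 0.0292) and by 2.06 ± 0.26 in all (4.16-fold, adjusted p = 7.07e-05), with no overlap between the 3 groups. The difference of the 20 h responses, 1.17 ± 0.37, did not pass (adjusted p = 0.162, 95% interval 0.38 to 1.96), nor did that at 6 h (0.12 ± 0.35, adjusted p = 0.947). The GM call at 6 h was lost without GM 6 h replicate 1 (0.85), with quantile normalization (0.64, adjusted p = 0.0918) and without both GM 0 h replicate 3 and GM 6 h replicate 1 (0.64, adjusted p = 0.227). The GM call at 20 h was lost without GM 0 h replicate 3 or GM 20 h replicate 1 at 20 h (0.69), and the GM4 call from 6 to 20 h was lost without GM4 6 h replicate 2 or 3 or either GM4 20 h array (0.85 to 1.01).

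Averaged over its 3 probe sets, Ctsc changed less from 0 to 20 h, by 0.39 in GM DC, which did not pass, and by 1.21 in GM4 DC, which did. From 6 to 20 h in GM4 DC that average differed by 0.37 and did not pass. On 101020_at alone Ctsc rose by 0.68 ± 0.22 from 0 to 6 h in GM DC, and by 0.93 ± 0.20 to 6 h and 1.20 ± 0.22 to 20 h in GM4 DC. From 0 to 20 h in GM DC that probe set differed by -0.01 ± 0.22 (adjusted p = 0.98), so the probe sets disagree there.

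Ctsl fell by 1.22 on the log2 scale between 0 and 20 h in GM DC (SE 0.27, 2.33-fold, adjusted p = 0.00306), a call that held under all 27 settings. In GM4 DC it differed by 0.04 ± 0.27 over the same time (adjusted p = 0.95, 95% interval -0.53 to 0.61). The difference of these responses was 1.26 ± 0.38 and did not pass (adjusted p = 0.136, 95% interval 0.45 to 2.07). Without GM4 0 h replicate 3, an array named above for the values of these genes, that difference was 1.60 and passed (adjusted p = 0.0168). In the same fit Ctsl also passed in GM DC from 0 to 6 h (-0.53, adjusted p = 0.0485) and from 6 to 20 h (-0.69, adjusted p = 0.029).

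Ctsd and Ctsz each passed in 1 comparison of times, in GM4 DC. In GM DC they passed with quantile normalization, Ctsd from 0 to 6 h (-0.69, adjusted p = 0.00225) and Ctsz from 0 to 20 h (-0.34, adjusted p = 0.0442). Whether the change of Ctsd from 6 to 20 h differed between the DC types was not tested. Ctsd rose by 0.76 ± 0.17 from 6 to 20 h (1.70-fold, adjusted p = 0.00778), a call lost without GM4 20 h replicate 2 (0.66). Ctsz fell by 0.44 from 0 to 6 h (SE 0.11, 1.36-fold, adjusted p = 0.0155), a call lost without GM4 0 h replicate 3 or GM4 6 h replicate 3 (both -0.41). At 6 h the difference of responses passed for 0 of 8 genes in limma's fit, against 0.958% of probe sets, and 1 gene, Ctsz (-0.40 ± 0.17), had an unadjusted p under 0.05. Without GM4 0 h replicate 3, Ctsb and Ctsd also rose from 0 to 20 h in GM4 DC, by 0.67 and 0.54 (adjusted p = 0.00611 and 0.0255), and Ctsb rose from 6 to 20 h (0.59, adjusted p = 0.0118). That array was named above for the values of these same genes.

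The main probe sets of Ctsb, Ctss and Cst3 passed in no comparison of times in the model as reported. The largest difference for Ctsb was from 6 to 20 h in GM4 DC, 0.59 ± 0.19 (adjusted p = 0.0623). It passed with the 40th percentile filter (adjusted p = 0.0246) and with array weights (0.68, adjusted p = 0.0121). With quantile normalization each passed in at least 1: Ctsb in GM4 DC from 0 and from 6 to 20 h (0.57 and 0.73), Ctss in GM4 DC from 6 to 20 h (0.36) and Cst3 in GM DC from 0 to 20 h (-0.43). For Cst3 the largest difference between times was from 6 to 20 h in GM DC, -0.65 ± 0.23 (adjusted p = 0.0722). It passed with the 40th percentile filter (adjusted p = 0.0244). Without GM 6 h replicate 2 the difference was -0.91. The 6 h group then held only GM 6 h replicate 1, an array named above, which had the highest Cst3 signal of all arrays (8364). Ctsb 92256_at, unlike the main Ctsb probe set, fell between 0 and 20 h, by 1.33 in GM DC (SE 0.26, adjusted p = 0.00139) and by 1.04 in GM4 DC (SE 0.26, adjusted p = 0.011). Its signals in GM DC were 201, 206 and 263 before stimulation and 74.2 and 82.8 after 20 h, and those in GM4 DC were 89.3, 64.7 and 152 before and 34.9 and 43.1 after 20 h. The 20 h arrays lay below the 0 h arrays in each DC type. Over the same times the main Ctsb probe set differed by 0.28 ± 0.19 and 0.44 ± 0.19, so the probe sets of Ctsb disagree on the change with time. Summed neutrophil marker signal was lower at 20 h than at 0 h in both DC types, as given above, and its part in these changes was not tested.

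**Figure D4:**
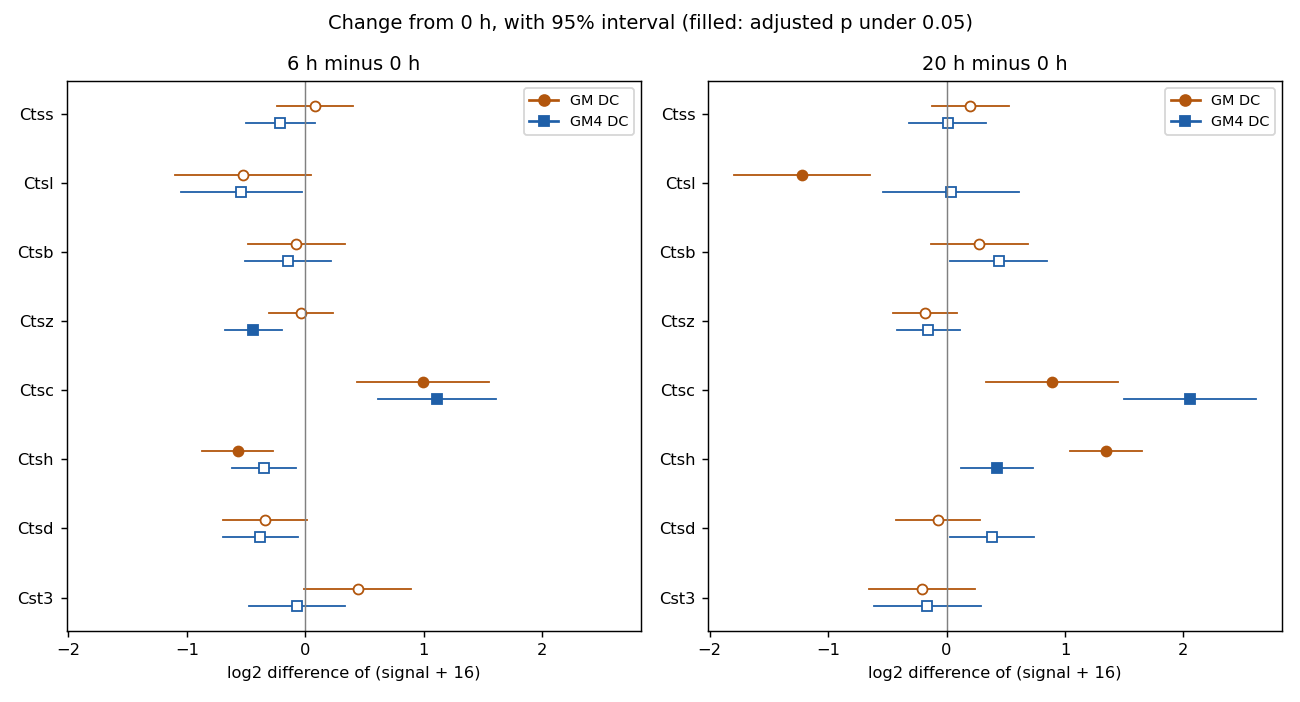
Log2 change of (signal + 16) from 0 h (x axis) at 6 h (left) and 20 h (right) for the main probe set of each gene (y axis) in GM DC (circles) and GM4 DC (squares), with limma's 95% interval; filled symbols have an adjusted p under 0.05. Ctsc is filled in both DC types at both times, and at 20 h Ctsh is filled in both, with 1.34 in GM DC and 0.42 in GM4 DC.

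Cystatin C and the cathepsins were also set against each other within each array, where the scaling of the array cancels. The difference between the log2 signals of a cathepsin and of Cst3 on its main probe set has no meaning as a level, so only the shift between DC types is given. Each shift equals the cathepsin difference minus the Cst3 difference already given, so it is no further evidence. Relative to Cst3, GM4 minus GM was -0.81, -0.59 and -1.05 for Ctss at 0, 6 and 20 h, and -1.25, -0.77 and -0.83 for Ctsd, which Cst3 does not inhibit. It was -0.98, -0.54 and -0.86 for Ctsb, -1.87, -1.24 and -0.75 for Ctsc and -1.48, -0.97 and -0.26 for Ctsl, in all of which the DC types did not overlap. How many other genes show such a gap relative to Cst3 was not counted, and at 20 h it rests on 2 arrays per DC type. For Ctsh it was -0.71, 0.02 and -1.68, with overlap at 6 h, and for Ctsz it was -0.41, -0.30 and -0.42, with overlap at 6 h. Against the second Cst3 probe set all 21 of these shifts were negative, from -3.17 to -1.13. Their sign follows from the differences already given, since that probe set was higher in GM4 DC at each time, so it is no further evidence. No test was made of these ratios.

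**Figure D5:**
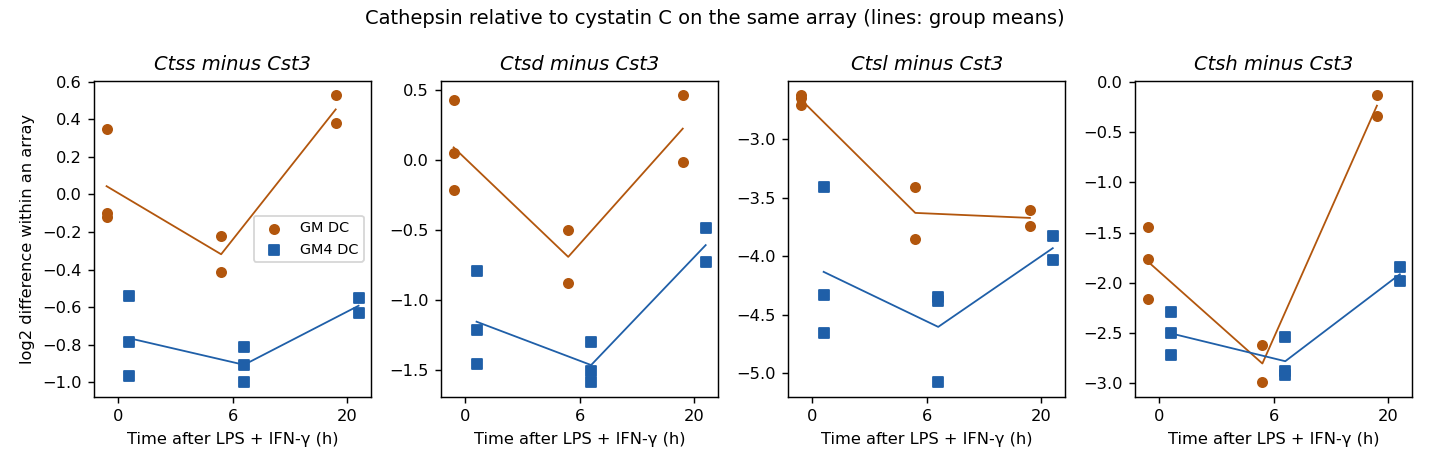
Log2 difference within an array between a cathepsin and Cst3, both by main probe set (y axis, own range in each panel), for Ctss, Ctsd, Ctsl and Ctsh against time (x axis, evenly spaced). Circles are GM arrays, squares GM4 arrays and lines join group means. GM4 arrays lie below GM arrays at each time, except for Ctsh at 6 h, where the shift was 0.02.

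Over the 15 arrays the genes varied together to different degrees. The highest Pearson correlations of log2(signal + 16) were 0.93 between Ctsb and Ctsd, 0.90 between Ctsb and Ctss and 0.90 between Ctsd and Ctss. Ctsc and Ctsl, which changed in opposite directions in GM DC, had a correlation of 0.20. Cst3 had a negative correlation with each cathepsin, from -0.63 with Ctsh to -0.02 with Ctsz. The arrays share groups and scaling, so these values describe the 15 arrays only.

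The genes most alike to each were taken as the 3 with the highest correlation among 4072 candidates with a mean above the median. For Ctss they were the lysosomal membrane protein gene Lamp1 (0.96), Fkbp1b (0.93) and Unc93b1 (0.92), which carries Toll-like receptors to endosomes. For Ctsd they were Atp6ap1 (0.98), a subunit of the proton pump that acidifies vesicles, Cxcl14 (0.95) and P2rx4 (0.95). For Ctsb they were Il10rb (0.94), Lamp1 (0.94) and Sirpa (0.91), and for Ctsc the formyl peptide receptor gene Fpr2 (0.98), Lamp2 (0.96) and the LPS co-receptor gene Cd14 (0.95). For Ctsl they were Sgk1 (0.91), the lysosomal hexosaminidase gene Hexa (0.89) and the macrophage marker Cd68 (0.89), and for Ctsz Smpdl3a (0.84), Pld3 (0.83) and Man2a1 (0.83). For Ctsh they were Tmem41b (0.96), Necap1 (0.95) and Rcan1 (0.94), and for Cst3 Tmem123 (0.82), the chemokine gene Ccl22 (0.79) and Psmc2 (0.78).

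The other genes of the pathway were followed in 4 lists. For comparison, 7.12% of all probe sets passed as lower and 6.86% as higher in GM4 DC at 0 h. These shares were 4.74% and 6.39% at 6 h, and 1.56% and 3.14% at 20 h. The shares for the comparisons of times are given above. Of 19 other lysosomal proteases 12 were measured, and at 0 h GM4 minus GM was higher for 2, lower for 3 and did not pass for 7, with a median of -0.07 against -0.06 over all genes. Lower were Ctsa, a carboxypeptidase that also protects other lysosomal enzymes (-1.20 ± 0.17), Dpp7, a dipeptidyl peptidase (-0.79 ± 0.18), and the tripeptidyl peptidase gene Tpp1 (-0.78 ± 0.16). Higher were the serine carboxypeptidase gene Scpep1 (0.77 ± 0.19) and the aspartic protease gene Napsa (0.51 ± 0.14). At 6 h 2 were higher and 2 lower, and at 20 h 0 of 12 passed in limma's fit, where 4 had an unadjusted p under 0.05. From 0 to 20 h Napsa fell in both DC types, with log2 differences of -2.12 ± 0.16 in GM DC and -2.36 ± 0.16 in GM4 DC. Of the 12 genes 4 fell and 0 rose in GM DC over that time, with a median of -0.51, and in GM4 DC 2 fell and 1 rose, the cysteine protease gene Ctsk (0.78 ± 0.23), with a median of -0.12.

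Of 26 protease inhibitors 10 were measured. At 0 h the cytosolic inhibitor of cathepsins Cstb was lower in GM4 DC (-0.55 ± 0.14), and Cst7, whose product cystatin F inhibits cathepsin C, was higher (1.78 ± 0.30), with a signal of 13.9 ± 7.15 (SD, n = 3) in GM DC and 90.4 ± 45.3 (SD, n = 3) in GM4 DC. The granzyme B inhibitor Serpinb9 was also higher (1.81 ± 0.25), and the other 7 genes did not pass. At 6 h Cstb (-0.93 ± 0.15) and Ctla2b (-1.05 ± 0.31) were lower and 0 were higher, and at 20 h Cst7 alone passed (1.53 ± 0.36). In GM DC Cst7 and Serpinb9 rose from 0 to 6 h, by 1.61 ± 0.33 and 2.23 ± 0.28, and both fell from 6 to 20 h. In GM4 DC 0 of the 10 passed against 0 h in limma's fit, and 0 had an unadjusted p under 0.05. The list medians stayed between -0.14 and 0.18 in all comparisons of groups.

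Of 18 class II partners of the cathepsins 15 were measured. At 0 h GM4 DC had more H2-Oa, a part of the modulator of peptide loading (0.61 ± 0.15), and Ifi30, the reductase that opens disulphide bonds in endosomes (0.79 ± 0.23), and less H2-DMa, a chain of the peptide loader (-0.76 ± 0.21), and Cd9, a tetraspanin (-0.74 ± 0.11). The median was 0.11, and 11 did not pass. At 6 h Cd9 alone passed, as lower, and at 20 h 0 of 15 passed in limma's fit, where 5 had an unadjusted p under 0.05. Ifi30 fell by 2.12 in GM DC (SE 0.26) and by 1.96 in GM4 DC (SE 0.26) from 0 to 20 h, and the tetraspanin gene Cd63 fell by 1.91 and 1.12 (SE 0.16 for both). H2-Oa rose by 1.30 ± 0.17 in GM DC over that time, and its response in GM4 DC was smaller by -1.11 ± 0.24 (adjusted p = 0.0387).

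Of 16 genes for sorting to lysosomes and their regulation 10 were measured. At 0 h 5 were lower in GM4 DC and 0 were higher, with a median of -0.60 against -0.06 over all genes. They were Igf2r, the larger receptor that carries cathepsins from the Golgi (-0.69 ± 0.16), the saposin precursor gene Psap (-0.57 ± 0.15), Lamp1 (-0.63 ± 0.15), Lamp2 (-0.64 ± 0.11) and Mitf, a transcription factor of lysosomal genes (-1.11 ± 0.20). At 6 h Psap, Lamp1, Lamp2 and Mitf were lower, with a median of -0.29, and at 20 h Lamp2 alone (-0.53 ± 0.14). Tfeb, a further regulator of lysosomal genes, passed as lower at 6 h than at 0 h in both DC types. Its signal was 38.2 to 92.1 in GM DC and 21.7 to 38.3 in GM4 DC at 0 h, and below the offset of 16 on all arrays at 6 h, so the size of the fall was not measured. From 0 to 6 h Lamp2 rose, by 0.46 ± 0.13 and 0.57 ± 0.11.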

How the data were processed

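RNA of cultured DC was labelled with biotin (ENZO kit) and read on Affymetrix mouse expression arrays. What was deposited is a MAS5 intensity for each probe set, not log-transformed, and the submitters' processing notes name that algorithm, with a version not given in the sources used here. On all arrays the 2% trimmed mean was 150.1 to 150.13, so the values were scaled to a shared mean and a change in total RNA per cell cannot be read from them.

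Titles gave the groups. After 66 control probe sets of 12488 were removed, all 12422 others were tested, of which 10833 had 1 gene symbol in the annotation, 396 had several and 1193 had none. The analysis used log2(signal + 16), a scale that understates changes at low signal, in limma 3.58.1 (R 4.3.3), with 6 group means over 15 arrays, 9 residual and 4.76 prior degrees of freedom, an intensity trend, and Benjamini-Hochberg adjustment of each of 11 contrasts over all probe sets. Precision is limited by the number of arrays, and p-values measure the spread between these samples, which may be technical.

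All 8 genes and their probe sets are named. From each list, the genes that passed are named, up to 3 by size in a comparison, and beyond that where 5 or fewer were counted, which was decided after their values were seen. Genes and lists were chosen with earlier results of these data known. The alternatives changed the offset (1, 64), the normalization (quantile, median centring), the filter (40th percentile of signal), the trend, array weights, a replicate block, a covariate for RNA quality (log2 3′/5′ ratios averaged over the Gapdh and β-actin controls), the arrays and groups entering the fit, and the probe sets of a gene (their mean). Upstream sequences are RefSeq's for GRCm38.p6.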

Additional observations from a re-analysis of the deposited data

Results flagged for a closer look

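The change of Ctsh from 0 to 20 h differed between the DC types by a direct test, the only one of the 8 genes to do so in the model as reported. The log2 difference of the changes, GM4 minus GM, was -0.92 ± 0.20 (limma, adjusted p = 0.039). Ctsh rose by 1.34 ± 0.14 in GM DC and by 0.42 ± 0.14 in GM4 DC. Both GM arrays at 20 h, 3895 and 3677, lay above both GM4 arrays, 1612 and 1413. Over the 27 alternative settings the difference ran from -1.02 to -0.75, with adjusted p from 0.0196 to 0.204, and the call was lost under 15 of them. Under single settings other genes passed this test: Ctsl without GM4 0 h replicate 3 (1.60, adjusted p = 0.0168), Ctsd with quantile normalization (0.88, adjusted p = 0.0374) and Ctsc with the replicate block (1.17, adjusted p = 0.0323). Ctsh did not pass in the first and second of these, with adjusted p of 0.0783 and 0.0573.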

How the results depend on the processing

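Over 27 alternative settings, 2236 of 2376 values of the 8 genes kept their side of the threshold, 98 lost a call and 42 gained one. Among the 2236, 73 values without a call changed sign, and 0 called values did. The calls that were lost under none of the 27 were those of Ctsc between the DC types at 0 and 6 h, Ctsh between them at 20 h, Ctsh in GM DC from 0 and from 6 to 20 h, Ctsl in GM DC from 0 to 20 h, Ctsc in GM4 DC from 0 to 6 and 0 to 20 h, and Ctsh in GM4 DC from 6 to 20 h.

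Between the DC types, the number of genes that passed at 0 h was 5 and became 1 with the RNA quality covariate, 3 with median centring and 3 with only the groups compared. At 6 h it was 6 and became 1 with the covariate, 3 with only the groups compared and 2 without both GM 0 h replicate 3 and GM 6 h replicate 1. At 20 h it was 2 and became 1 with median centring. From 0 to 6 h in GM DC 2 genes passed, and 1 did with median centring, without both arrays, and with only the groups compared. From 0 to 20 h in GM DC 3 passed, and 5 did with quantile normalization. From 6 to 20 h in GM DC 1 passed, and 2 did with the 40th percentile filter and with only the groups compared. From 0 to 6 h in GM4 DC 2 passed, with 4 under quantile normalization and under array weights and 1 under median centring. From 0 to 20 h in GM4 DC 2 passed, with 4 under quantile normalization and 1 under an offset of 1, median centring, no intensity trend and only the groups compared. From 6 to 20 h in GM4 DC 3 passed, and 5 did with quantile normalization. For the difference of the 20 h responses 1 passed, and 0 did with median centring, without both arrays, and with only the groups compared. The fits with only the groups compared have fewer samples, and for the other settings the cause was not tested. With quantile normalization Cst3 on its main probe set passed as higher in GM4 DC at 20 h (0.70) while Ctss lost its call there (-0.31), and with the mean of its probe sets Cst3 passed at 0 h (0.97).

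Leaving out each array in turn, the number of genes that passed between the DC types ran from 3 to 6 at 0 h, 2 to 6 at 6 h and 1 to 2 at 20 h. In GM DC it ran from 1 to 3 at 6 h, 2 to 3 at 20 h and 1 to 2 from 6 to 20 h. In GM4 DC it ran from 1 to 2 at 6 h, 1 to 4 at 20 h and 1 to 4 from 6 to 20 h, and for the difference of responses from 0 to 0 at 6 h and 0 to 1 at 20 h. Where this left 1 array in a group, that array was assumed to vary like those of the other groups. Over all 12422 probe sets, the count between the DC types ran from 964 to 2460 at 0 h around 1736, from 604 to 1600 at 6 h around 1383 and from 146 to 766 at 20 h around 584.

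The labels number the replicates. Deviations of same-numbered arrays from their group means correlated by 0.0026 to 0.332, above 0.1 for 17 of 33 pairs. Those of other pairs correlated by -0.297 to 0.173, and 14 of 15 arrays correlated best with their own number. In a group of 2 arrays the deviations are mirror images, so these pairs are not independent and some negative values are forced. The labels state no source shared by arrays of a number, and whether there was one was not tested. With the replicate number as a block, the genes that passed were 2 in place of 1 from 6 to 20 h in GM DC, 4 in place of 2 from 0 to 20 h in GM4 DC, and 2 in place of 1 for the difference of the 20 h responses. The block ended 0 calls and gave 8: Ctsh between the DC types at 0 h (adjusted p = 0.0431), Cst3 in GM DC from 0 to 6 h (0.0306) and 6 to 20 h (0.0126), Ctsd in GM4 DC from 0 to 6 h (0.0493) and 0 to 20 h (0.0326), Ctsb in GM4 DC from 0 to 20 h (0.0199) and 6 to 20 h (0.00899), and Ctsc for the difference of the 20 h responses (0.0323).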
